A study of Homo sapiens with 6 samples.

Results

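This report concerns a block of 118 human microRNA rows that miRBase registered close together. It holds every row of the deposited value table whose accession lies between MIMAT0003214 and MIMAT0003340, apart from 5 accession numbers that the definition leaves out. The 118 rows are 9.74% of the 1212 rows in the table. All 118 carry a single accession. The rule that defines them uses no measured value, though it was chosen with earlier results of these data known. The block's working name, miR-551 to miR-660, could not be checked row by row, because the files and the reference tables used here pair none of these accessions with a microRNA name. Each member is therefore given by its accession, and no member has a stated target or role.

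The samples are Huh7, an established cell line from a human hepatocellular carcinoma, grown in medium with serum. The control group is Huh7 kept without metformin for 72 h (3 arrays). The treated group is Huh7 kept in 10 mM metformin for 72 h (3 arrays). Metformin is a biguanide drug for diabetes that inhibits mitochondrial respiration. Mature microRNAs in total RNA were labelled with the dye Hy5 and hybridised to 1-colour arrays, and the question was which microRNAs change in abundance with the drug. Whether the 3 samples per group were separate cultures is not stated, and the p-values below therefore reflect sample-to-sample spread that may be technical. Markers of liver and of other tissues could not be read either, for want of names. Each array gave a value for 1099 to 1209 rows, with a median intensity of 22.8 to 24.1, and the number of arrays limits the precision.

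MicroRNAs are short RNAs that guide Argonaute proteins to messenger RNAs, chiefly by pairing of the seed, bases 2 to 8 counted from the 5′ end. Members of a family share a seed and therefore many targets. Accession numbers, by contrast, follow the order of registration. MicroRNAs with neighbouring numbers therefore need not share a seed or a genomic locus. The definition of the block describes its members as mostly primate microRNAs found in colorectal cells. MicroRNAs found by deep sampling after the widely conserved families were known are often expressed at low levels and in few tissues.

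The RefSeq microRNA table (GRCh38.p14) shows how mixed such a numbering range is. It holds 101 genes with numbers in the range of the working name, spread over 19 chromosomes, and they give 127 mature names with 125 distinct seeds. A total of 104 names (81.9%) have a seed found in no other mature name of the table, against 67.9% of all 2370 mature names. Their G and C content runs from 19.0% to 80%, with a median of 47.6%. A name range is not the accession range that defines the block, so these properties describe the numbering and cannot be joined to any intensity below. The sequences that follow are shown because they are exceptions, mature microRNAs of the range that do share a seed (in capitals). The first pair shares it within the range, the second with miR-21-5p, a growth-promoting microRNA of many tumours, and the last set with miR-1-3p and miR-206, which are typical of muscle.
miR-551a: gCGACCCAcucuugguuucca
miR-551b-3p: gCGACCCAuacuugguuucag
miR-590-5p: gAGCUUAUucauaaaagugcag
miR-21-5p: uAGCUUAUcagacugauguuga
miR-613: aGGAAUGUuccuucuuugcc
miR-1-3p: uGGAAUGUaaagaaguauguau
miR-206: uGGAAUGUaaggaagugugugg

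In GRCh38.p14, the mature miR-551a sequence lies at chr1:3560710-3560730 on the minus strand, inside the span of the protein-coding gene MEGF6. The mature miR-551b-3p sequence lies at chr3:168551914-168551934 on the plus strand, inside the transcribed pseudogene EGFEM1P. For miR-590-5p the position is chr7:74191213-74191234 on the plus strand, inside EIF4H, which encodes a translation initiation factor. The miR-613 sequence lies at chr12:12764709-12764728 on the plus strand, inside APOLD1. The table used gives gene spans only, so exon and intron cannot be told apart.

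Most members were dim. Among the 93 members with a value on all 6 arrays, the geometric mean intensity of the 6 arrays ran from 10.2 to 366, with a median of 20.3. The median was 22.5 over all 1038 rows measured on all arrays. A total of 60 of the 93 members (64.5%) lay below that median. Only 7 members had a geometric mean of 50 or higher and 6 more lay between 30 and 50, whereas 37 lay between 20 and 30, 35 between 15 and 20, and 8 below 15. When the 1038 rows were divided by brightness into 4 classes of equal size, the dimmest class held 33 of the 93 members and the brightest, with geometric means of 32.5 or higher, held 13. Probes differ in how well they bind and label, so brightness does not rank the abundance of the microRNAs. The members together held 2.11% to 2.73% of the summed intensity of an array, and the 2 brightest of them held 16.5% to 23.4% of the members' share.

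**Figure D1:**
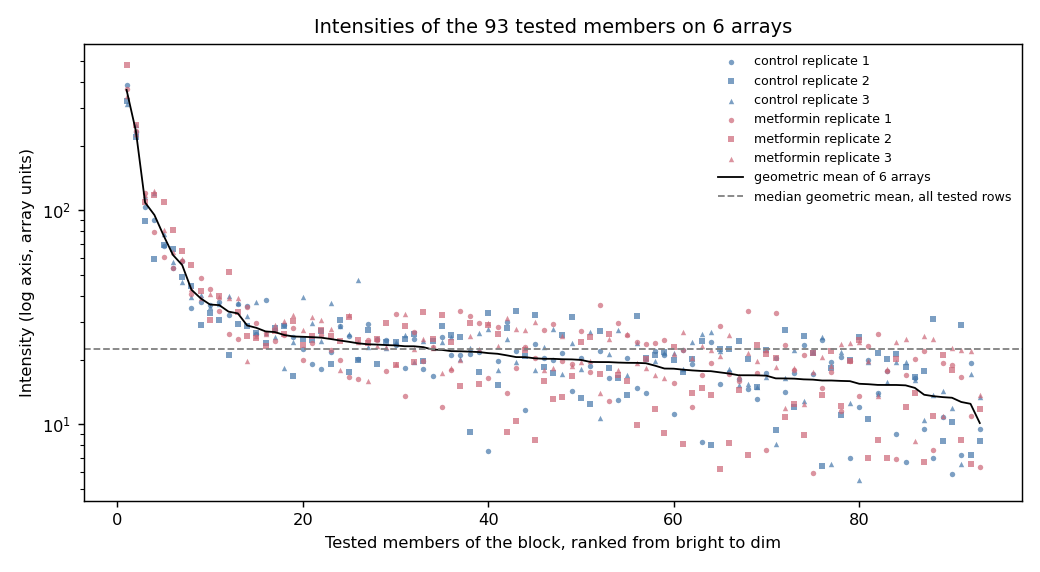
Intensity of each of the 93 tested members on the 6 arrays (log axis, array units), with members ranked from bright to dim by their geometric mean (black line). A short bright end with a highest geometric mean of 366 falls quickly to a long flat tail around the dashed line, the median of all tested rows (22.5).

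The arrays agreed little on the order of the dim members. Over the 93 members, Spearman correlations of the 15 pairs of arrays ran from 0.28 to 0.65, against 0.58 to 0.80 for the other tested rows. With the 12 brightest left out, the remaining 81 members gave correlations from -0.07 to 0.47. No matching value was taken for dim rows outside the block. All these correlations are across microRNAs on the same arrays, which are not independent, and the members' narrow range of brightness goes with them. The within-group SD on the log2 scale had a median of 0.64 for the 33 members of the dimmest class, 0.43 for the 27 of the next, 0.28 for the 20 of the third and 0.21 for the 13 of the brightest. Over all rows of the same classes the medians were 0.64, 0.44, 0.30 and 0.24.

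MIMAT0003308 was the brightest member, ranked 44 among the 1038 tested rows. Its intensities were 386, 324.4 and 312.6 in control and 370.0, 479.1 and 343.8 with metformin. The value on metformin replicate 2 stood above the others and the groups overlapped. The log2 difference, metformin minus control, was 0.21 (SE 0.24, limma adjusted p = 0.991), and it was 0.07 without metformin replicate 2. Over the other fits without 1 array it ran from 0.15 to 0.31.

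MIMAT0003326 was next and had the lowest standard error of the 12 brightest members (0.21 on the log2 scale). It measured 232, 221.0 and 249.3 in control and 234.2, 250.6 and 226.5 with metformin. The group means were 234 ± 14.3 and 237.1 ± 12.3 (SD, n = 3), and all 6 values lay within the same narrow band. Its log2 difference was 0.02, with a 95% interval from -0.46 to 0.50. That sign turned after quantile normalization (-0.17), without control replicate 2 (-0.02) and without metformin replicate 2 (-0.02), and the difference was 0.07 without control replicate 3 and 0.05 without metformin replicate 3.

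MIMAT0003218 measured 104, 89.1 and 115.1 in control and 120.3, 109.7 and 117.6 with metformin. MIMAT0003233 spread more widely, at 90.1, 59.0 and 121.0 in control and 79.4, 118.6 and 123.2 with metformin. In both, the lowest value was that of control replicate 2 and the groups overlapped. The log2 differences were 0.18 (SE 0.22) and 0.28 (SE 0.33), in that order. Without control replicate 2 they were 0.08 and 0.0091. The difference of MIMAT0003233 was also 0.53 without control replicate 3, 0.49 without metformin replicate 1 and 0.17 without metformin replicate 3.

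MIMAT0003240 gave 68.2, 69.1 and 77.9 in control against 60.3, 109.8 and 80.7 with metformin. MIMAT0003293 gave 54.1, 66.1 and 57.2 against 53.7, 80.6 and 63.9. In each, metformin replicate 1 was the lowest of the 6 arrays and metformin replicate 2 the highest. Without metformin replicate 2 the log2 difference of MIMAT0003240 turned from 0.18 to -0.04 and that of MIMAT0003293 from 0.15 to -0.0081. Without metformin replicate 1 they were 0.39 and 0.28. That of MIMAT0003293 was 0.08 without control replicate 1 and 0.23 without control replicate 2.

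MIMAT0003239 was the only one of the 12 brightest members whose groups did not overlap. Its intensities were 57.8, 48.9 and 46.4 in control and 58.2, 64.4 and 59.6 with metformin. The gap between the highest control and the lowest metformin value was small beside the spread within control. The log2 difference was 0.26 (SE 0.22), with a 95% interval from -0.25 to 0.76 and a limma adjusted p = 0.991.

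The last 5 of the 12 brightest had geometric means between 33.7 and 42.6. MIMAT0003338 measured 34.9, 44.5 and 39.4 in control and 40.7, 55.7 and 42.9 with metformin. MIMAT0003282 measured 37.2, 29.0 and 40.2 in control and 48.3, 41.9 and 38.9 with metformin. Both groups overlapped in each of them. MIMAT0003283 measured 36.3, 33.3 and 35.2 in control, the tightest control values of the 5, and 42.9, 30.7 and 40.9 with metformin. MIMAT0003294 measured 37.2, 30.8 and 36.5 in control and 33.8, 39.9 and 39.2 with metformin. MIMAT0003280, the dimmest of the 12, had the highest standard error of the 12 (0.34), with 32.5, 21.2 and 39.8 in control and 26.5, 51.4 and 38.9 with metformin.

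**Figure D2:**
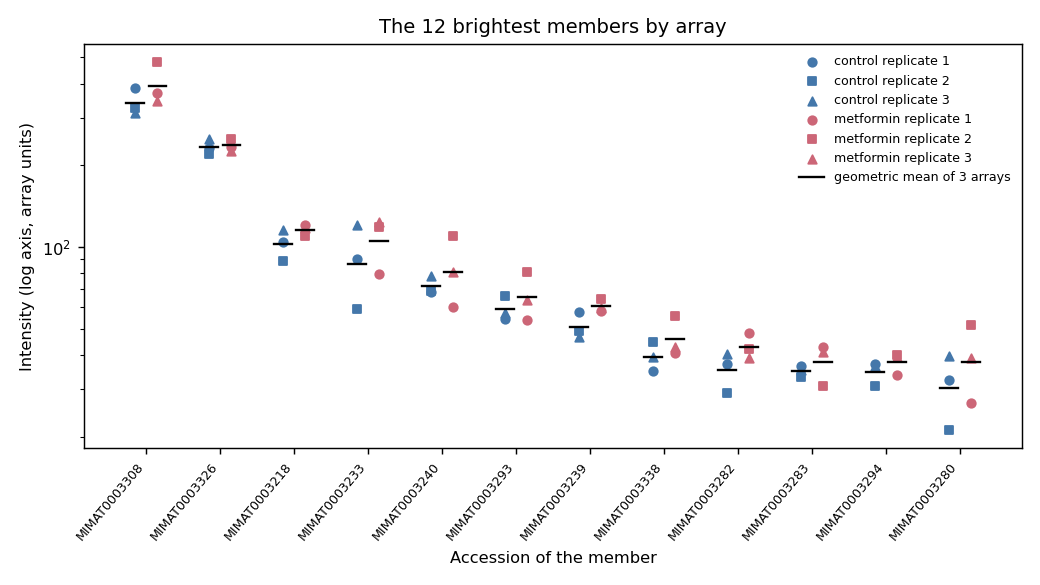
Intensity on each array (log axis, array units) of the 12 members with the highest geometric mean, control in blue and metformin in red, with black bars for the geometric mean of 3 arrays. The bars with metformin stand at or slightly above those of control for all 12, and the points of the groups overlap for 11 of them.

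All 12 of these members had a higher mean log2 value with metformin, by 0.02 to 0.32, with a median of 0.20. For the 12, the smallest unadjusted p was 0.261 and every limma adjusted p was 0.991, so no difference was called. These p-values rest on standard errors that limma draws toward a variance common to all rows. The median within-group SD on the log2 scale was 0.21 for the 12, against 0.38 over all tested rows. With trend and robust eBayes, and with the unmoderated test, 0 members were called either. A higher mean was found for 52.9% of all 1038 tested rows and for 71.5% of the 260 rows in the brightest class, whose median difference was 0.10. The lean was therefore present among bright rows at large. Metformin replicate 2 gave the highest value for 8 of the 12, and control replicate 2 the lowest for 6. Taken as the median deviation from each member's mean, the level of the 12 was -0.06, -0.18 and 0.02 on control replicates 1, 2 and 3 and -0.04, 0.27 and 0.09 on the metformin arrays. Metformin replicate 1 lay below control replicate 3, so the arrays of the groups overlapped. Without metformin replicate 2, 9 of the 12 remained higher and the median was 0.09, and without control replicate 2 the median was 0.11. The fit lacking metformin replicate 1 gave a median of 0.27. With quantile-normalized values, 11 of the 12 remained higher and the median was 0.13. The differences of MIMAT0003308, MIMAT0003218 and MIMAT0003233 were then 0.13, 0.02 and 0.15, and those of MIMAT0003240, MIMAT0003293 and MIMAT0003239 were 0.07, 0.02 and 0.14. For MIMAT0003338, MIMAT0003282 and MIMAT0003280 they were 0.15, 0.28 and 0.29. MIMAT0003283 and MIMAT0003294 rose from 0.11 to 0.14 and 0.12, and MIMAT0003326 turned to -0.17.

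No member was called changed by metformin. Of the 93 members tested, 0 had a limma adjusted p under 0.05, as was the case for 0% of the 1038 rows, and the lowest adjusted p of a member was 0.991. Before adjustment, 3 members (3.23%) were higher with metformin at a p under 0.05 and 0 were lower, where 1.64% of all tested rows were higher and 1.06% lower. The 3 were dim, with geometric means of 21.4 or less. For 6 members every metformin value lay above every control value, and for 1 member every metformin value lay below, against 4.43% and 3.18% of all tested rows. The 7 differences ranged in size from 0.26 to 1.15 on the log2 scale. A total of 49 members had a higher mean with metformin and 44 a lower one, and the median difference was 0.02, beside 0.03 over all tested rows. The median of the members turned to -0.02 without control replicate 1 and to -0.01 without metformin replicate 3.

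**Figure D3:**
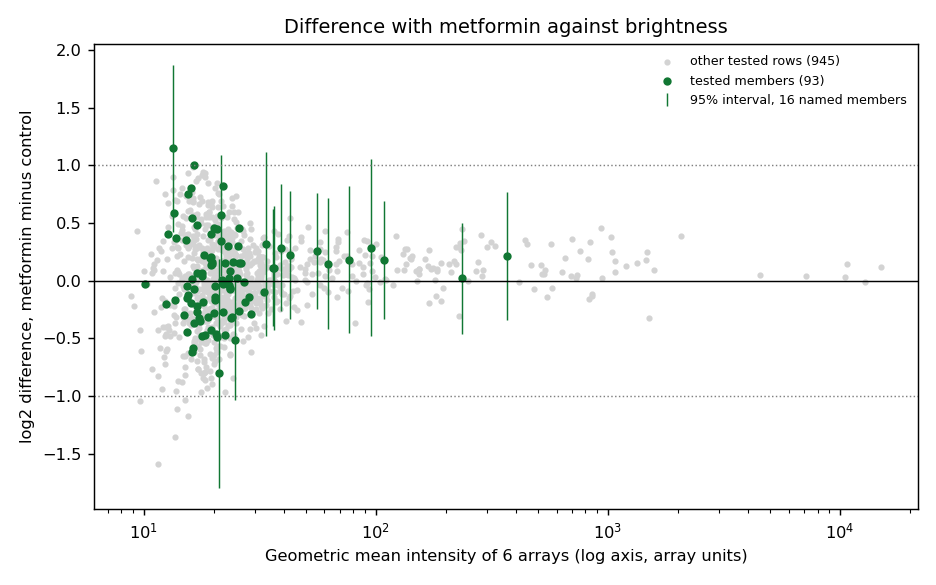
The log2 difference, metformin minus control, of each tested row against its geometric mean intensity (log axis, array units). The 93 members are in green, the other 945 rows in grey, vertical lines are 95% intervals of 16 named members and dotted lines mark a 2-fold change. Members scatter widely where they are dim and lie between 0.02 and 0.32 for the 12 brightest.

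The 2 members higher with metformin at the smallest unadjusted p were MIMAT0003272 and MIMAT0003324. MIMAT0003272 was among the dimmest rows, at the 5.11 percentile of brightness. It measured 5.87, 10.3 and 11.9 in control and 19.0, 18.0 and 22.8 with metformin. The groups did not overlap, and its control replicate 1 value of 5.87 was the lowest of that array. That value is among those written with more than 1 decimal, described below. The log2 difference of MIMAT0003272 was 1.15 (SE 0.31, limma unadjusted p = 0.00656, adjusted p = 0.991), and without control replicate 1 the difference was 0.84. Over the other fits without 1 array it ran from 1.05 to 1.35.

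MIMAT0003324, near the middle of all rows in brightness, measured 19.7, 15.3 and 18.0 in control and 28.6, 26.6 and 23.2 with metformin. The lowest metformin value stood above the highest control value by more than the SD of either group (2.22 and 2.73). The member was named for its small p, so this gap is not separate support. Its log2 difference was 0.57 (SE 0.23), or 1.48-fold, with an unadjusted 95% interval from 0.04 to 1.09 and a limma adjusted p = 0.991.

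The 2 members lower with metformin at the smallest unadjusted p were MIMAT0003306 and MIMAT0003295, and neither reached an unadjusted p of 0.05. MIMAT0003306 measured 28.7, 30.8 and 28.9 in control and 20.0, 24.5 and 18.0 with metformin. It was the member whose metformin values all lay below control, and its control values lay close together, with an SD of 1.15. The log2 difference was -0.51 (SE 0.22, limma adjusted p = 0.991).

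MIMAT0003295 had the lowest log2 difference of all tested members, yet its groups overlapped. It measured 30.1, 28.3 and 25.2 in control and 14.0, 9.2 and 31.3 with metformin. Metformin replicate 3 was the highest of the 6 arrays, while the other metformin arrays were the lowest. The log2 difference was -0.80 (SE 0.43, limma adjusted p = 0.991), and it was -0.41 without metformin replicate 2 and -1.29 without metformin replicate 3.

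The data bounded the change in intensity for fewer members than not. The unadjusted 95% interval lay inside 2-fold up or down for 43 of 93 members (46.2%), against 54.9% of all tested rows. By class of brightness, from dim to bright, this held for 3 of 33, 12 of 27, 17 of 20 and 11 of 13 members. Over all tested rows of the same classes it held for 22 of 260, 121 of 259, 198 of 259 and 229 of 260. Among the 12 brightest, MIMAT0003233 and MIMAT0003280 were the exceptions, with intervals reaching 1.05 and 1.11. Because the background correction is unknown, such a bound holds for intensity and may not hold for abundance.

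Another 25 members had at least 1 empty cell and were not part of that fit. Of these, 21 lacked 1 value and 4 lacked 2, and 0 lacked 3 or more. They were dim where measured, with a median geometric mean of 15.2, and the brightest reached 23.1. Empty member cells numbered 7, 2 and 1 on control replicates 1, 2 and 3 and 4, 15 and 0 on the metformin arrays. Metformin replicate 2 thus lacked 12.7% of the members, and 8.96% of the other rows. On control replicate 1 the shares were 5.93% and 2.65%. In a fit that asked for at least 2 values per group, 24 of the 25 could be compared. Of the 24, 0 passed the threshold (lowest limma adjusted p = 0.990), while 1 higher and 1 lower had an unadjusted p under 0.05. In that fit 31 of all 1200 rows (2.58%) had such a p. The log2 differences of the 24 ran from -1.16 to 1.15.

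By median, the level of the block was lowest on control replicate 1. The members' share of summed intensity was instead lowest on metformin replicate 2 (2.11%, against 2.34% on control replicate 1). The median log2 intensity of the 93 members was 4.36, 4.49 and 4.51 on control replicates 1, 2 and 3 and 4.52, 4.42 and 4.54 on the metformin arrays. The groups overlapped, with means of 4.45 ± 0.08 and 4.49 ± 0.06 (SD, n = 3). For the other 945 tested rows the corresponding medians were 4.61, 4.63 and 4.66, and 4.60, 4.54 and 4.69, so control replicate 1 was the lowest array for the members but not for the rest.

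**Figure D4:**
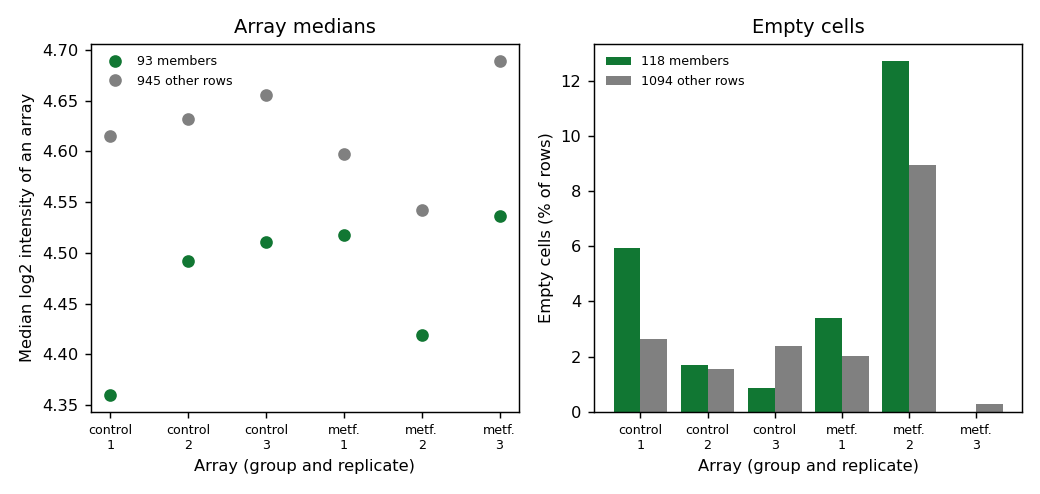
Left, the median log2 intensity of the 93 tested members (green) and of the 945 other tested rows (grey) on each array. Right, the percentage of rows with an empty cell among all 118 members and 1094 other rows. Control replicate 1 has the lowest median for the members (4.36), and metformin replicate 2 the most empty cells (12.7% of members).

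Control replicate 1 was also written differently for most of the block. Of the 111 members with a value on this array, 93 (83.8%) have more than 1 decimal, against 108 of 1065 other rows (10.1%). The other 5 arrays hold 0 such values. All 201 finely written values fall on evenly spaced grids with a step of 0.121 intensity units, 165 on one grid and 36 on another shifted from it by 0.356 of a step, within a tolerance of 0.02 of a step. The second grid covers only low values, from 5.87 to 18.4, and the first runs upward from 13.2. Of the 93 finely written members, 79 were among those tested. In all, 70 lie on the first grid and 23 on the second, and 11 of the 12 brightest members are finely written. No source used here says what was done to these values.

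The finely written values were set against the other control arrays. Control replicate 1 minus the mean of control replicates 2 and 3 was -0.05 in the median (log2; SD 0.59, 93 members) for the finely written values. For the 18 members written with at most 1 decimal it was -0.09 (SD 0.55). For the other rows the medians were 0.03 (SD 0.57, 108 rows) and 0.02 (SD 0.56, 957 rows). When the finely written values were left out, a choice made after seeing the data, the median difference of the members went from 0.02 to -0.02, and 0 members passed the threshold by limma, with 3 of 93 at an unadjusted p under 0.05, against 27 of 1038 rows (2.60%). Whether the spacing of these values plays a part in the low member median of control replicate 1 was not tested.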

How the data were processed

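Mature microRNAs of 6 Huh7 samples (3 control, 3 metformin) were measured on 1-colour arrays. The deposited table holds linear intensity values that the authors had already processed. That they are linear is inferred from the values. No source used here gives the scanner, the background correction, the scaling or why cells are empty. Intensities were converted to log2 without a pseudocount. The test of metformin against control used limma 3.58.1 (R 4.3.3; lmFit, eBayes, two-sided) over all 1038 rows with a value on 6 arrays, with Benjamini-Hochberg adjustment over all of them and a threshold of 0.05. This leaves out dim rows. The prior variance of eBayes was common to all rows, whatever their brightness, which draws standard errors and intervals toward a common value. Samples were grouped by title. Exact permutation was not used, since with 3 arrays a group its smallest two-sided p is 0.1.

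The members and lists were chosen with earlier results of these data known. The naming rule took the 12 brightest tested members and those with the smallest unadjusted p in each direction, limited here to 2 because accessions carry no names. It also asked for members empty on 3 or more arrays, of which there were 0. Lists by microRNA name, seed or base composition, and tissue markers, could not be formed, since 0 rows of the reference carry such an accession. Sequences were read from RefSeq (GRCh38.p14). The fit was also run on simulated data with independent noise and known changes of 2-fold or more. The share of 2-fold changes recovered is not given here, so that run lends no weight to the absence of calls. Alternatives were quantile normalization, median centring, at least 2 values per group, the brighter 50% of rows, log2(value + 1), trend and robust eBayes, an unmoderated test, a block for the replicate number, and each array left out in turn. Figures came from matplotlib 3.10.9 (Python 3.11.15).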

Additional observations from a re-analysis of the deposited data

How the results depend on the processing

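In all 15 alternative settings, 0 rows and 0 members passed the threshold by limma. The median difference of the members, 0.02, was 0.11 among the 33 members in the brighter 50% of rows, a set with fewer and brighter members, and lay between -0.02 and 0.099 over the 6 fits without 1 array (highest without control replicate 3). The number of members at an unadjusted p under 0.05, 3 of 93, was 5 of 117 with at least 2 values per group (31 of all 1200 rows, 2.58%), 1 of 33 in the brighter 50% (10 of 519 rows, 1.93%) and 5 of 93 without metformin replicate 3 (38 of 1038 rows, 3.66%). The number with an interval within 2-fold, 43 of 93, was 45 of 117 with at least 2 values per group and 32 of 33 in the brighter 50%. In the other settings it ran from 29 to 49 of 93, with 29 without control replicate 3. The matching shares over all rows are not given for these settings.

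The replicate numbers were not treated as pairs. Deviations of same-numbered samples correlated at 0.01, -0.27 and -0.02 over all tested rows. With the replicate block 0 members passed and 2 of 93 had an unadjusted p under 0.05, against 24 of 1038 rows (2.31%). Of 237 refits of the 16 named members, 0 crossed the threshold and 5 turned sign. These were MIMAT0003326 after quantile normalization (-0.17) and without control or metformin replicate 2, and MIMAT0003240 and MIMAT0003293 without metformin replicate 2. Over the fits without 1 array, the difference of MIMAT0003326 ran from -0.021 to 0.066, that of MIMAT0003240 from -0.037 to 0.39 and that of MIMAT0003293 from -0.0081 to 0.28. The cause was not tested. With 3 arrays per group and no measure of background, precision is lowest for dim members.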
